A study of Mus musculus with 4 samples.

Results

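Genes that glucocorticoids induce are used as a readout of the hormone's action, and 7 of them, Zbtb16, Fkbp5, Tsc22d3, Sgk1, Cdkn1a, Pdk4 and Angptl4, are described here in mouse lung RNA. They were chosen by symbol, and all 7 of 7 were found in both deposited tables, out of 23284 genes. Each was listed once per table, under its current symbol. The lungs came from C57BL/6 mice in 4 groups with 1 library each. The first 2 groups were wild-type mice and IL22-/- mice, which lack the cytokine interleukin-22, both sensitized to and challenged with an allergen that models asthma, house dust mite (HDM), with lungs taken 48 h after its last dose. The other 2 groups were wild-type mice given PBS or recombinant IL-22 into the trachea, with lungs taken 24 h later. The labels give neither ages nor sexes, and do not say how the knockout allele was made or whether a library is 1 mouse or a pool. No group was given a glucocorticoid per the labels, and there was no wild-type or knockout group without HDM in the HDM table.

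Glucocorticoids are steroid hormones of the adrenal cortex, and their levels follow the daily clock and rise with stress. The hormone enters the cell and binds the glucocorticoid receptor (gene Nr3c1), which is held ready by Hsp90 chaperones and then moves to the nucleus. There it binds DNA as a dimer at sites made of a pair of inverted arms, and it also represses inflammatory genes. In lung these hormones mature the surfactant system before birth and, as inhaled drugs, treat asthma. The 7 genes have different jobs: Fkbp5 feeds back on the receptor, and Tsc22d3 and Zbtb16 regulate transcription. Sgk1 is a kinase, Cdkn1a stops the cell cycle, and Pdk4 and Angptl4 shift fuel use toward fat. Most of the 7 genes also answer to other signals, such as p53 for Cdkn1a and the fatty acid receptors of the PPAR family for Pdk4 and Angptl4.

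The start regions of the members differ in whether they hold the receptor's recognition letters. RefSeq promoter windows of GRCm38.p6, the assembly called mm10, run from 250 bases before to 50 bases after a start and were found for 5 of the 7 members, 13 windows in all. Zbtb16 and Angptl4 had none in the table. The receptor's palindrome, searched as AGAACA, any 3 bases and TGTTCT, reads the same on both strands. It occurred in 1 of the 13 windows, at a start of Sgk1, and in 3 of all 32851 windows (0.00913%). A looser form, AGNACA, any 3 bases and TGTNCT (N is any base), includes the palindrome and occurred in the same Sgk1 window and in 21 of all windows (0.0639%). A single arm, AGAACA or TGTTCT on the other strand, is contained in the palindrome as well. It occurred in 4 windows, 3 of Sgk1 and 1 of Tsc22d3, and in 19% of all windows. There are 4 windows shown, that of Sgk1 with the palindrome, that of Tsc22d3 with a single arm, and those of Fkbp5 and Pdk4, whose HDM values lay furthest above their PBS and IL-22 values among the members with a window, and which had neither. Capitals mark the matched letters.
Sgk1, chr10:21993640-21993939, plus strand: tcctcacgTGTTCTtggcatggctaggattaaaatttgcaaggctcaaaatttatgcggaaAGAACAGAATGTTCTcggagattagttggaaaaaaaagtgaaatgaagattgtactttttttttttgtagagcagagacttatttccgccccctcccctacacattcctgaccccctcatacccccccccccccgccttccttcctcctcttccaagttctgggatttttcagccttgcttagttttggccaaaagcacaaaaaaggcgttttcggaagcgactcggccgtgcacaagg
Tsc22d3, chrX:140600473-140600772, minus strand: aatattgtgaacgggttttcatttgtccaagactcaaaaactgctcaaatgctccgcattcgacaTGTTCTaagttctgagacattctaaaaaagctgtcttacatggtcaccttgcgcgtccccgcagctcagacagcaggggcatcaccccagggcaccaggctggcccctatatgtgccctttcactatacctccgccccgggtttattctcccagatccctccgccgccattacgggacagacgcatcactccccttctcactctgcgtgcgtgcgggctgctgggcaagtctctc
Fkbp5, chr17:28486100-28486399, minus strand: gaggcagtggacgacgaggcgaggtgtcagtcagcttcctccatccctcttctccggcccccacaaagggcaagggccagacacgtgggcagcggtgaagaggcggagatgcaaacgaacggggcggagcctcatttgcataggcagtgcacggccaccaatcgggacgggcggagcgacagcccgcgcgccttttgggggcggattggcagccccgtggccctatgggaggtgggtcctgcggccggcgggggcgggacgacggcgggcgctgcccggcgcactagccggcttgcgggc
Pdk4, chr6:5496229-5496528, minus strand: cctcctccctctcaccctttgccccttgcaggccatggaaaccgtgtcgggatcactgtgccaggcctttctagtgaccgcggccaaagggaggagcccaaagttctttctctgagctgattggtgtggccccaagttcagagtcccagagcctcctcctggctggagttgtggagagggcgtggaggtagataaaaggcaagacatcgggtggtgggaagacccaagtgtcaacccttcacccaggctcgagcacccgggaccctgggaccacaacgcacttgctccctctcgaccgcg
In Sgk1 the palindrome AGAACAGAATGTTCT lies at -189 to -175 from the start, with a further arm at -242, and in Tsc22d3 the arm begins at -185. Sgk1 has 6 such windows, and the tables give 1 value for all its transcripts, so reads from this start cannot be told apart from the others. A match of letters is not a measured binding site, and these windows do not reach the distant enhancers through which the receptor often acts.

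The members lie on 5 chromosomes of mm10, and all 7 are protein coding in GENCODE M21. Fkbp5 (chromosome 17, 28399094 to 28517527), Cdkn1a (chromosome 17, 29090976 to 29100727) and Angptl4 (chromosome 17, 33773750 to 33781830) share a chromosome. Zbtb16 is on chromosome 9 (48654297 to 48836222), Pdk4 on chromosome 6 (5483351 to 5496309) and Tsc22d3 on the X chromosome (140539528 to 140600659). Sgk1 is on chromosome 10 (21882184 to 21999903), which also carries Il22 (118204942 to 118210047).

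Il22 was at 0.362 FPKM in wild type after HDM and listed at 0 in the other 3 libraries, so its value checks the knockout label only weakly. FPKM counts fragments per kilobase of transcript, scaled to the number mapped. The whole-read steps of low values put the depth at 19.98 to 28.87 M reads per library (M for 1000000). Lung identity was plain in each library, with Scgb1a1 of club cells at 17.6 to 20.5% of the total FPKM. A difference is log2(FPKM + 1) in one library minus the other of its table, for genes whose mean FPKM reached 1 (measured genes). Genes whose difference reached 1 or -1, 2-fold in FPKM + 1, are called higher or lower. With 1 library per group there is no spread between replicates, no test and no p-value, so each difference describes 2 libraries. For 4 members with a single transcript record, 95% counting intervals are given, which leave out the spread between mice. In whole lung, fewer cells of a type and less RNA per cell cannot be told apart.

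Within the HDM table no member was called either way in the knockout, where 2.97% of 13285 measured genes were called, 0.549% higher and 2.42% lower. All 7 passed the filter on low values. Of the 7 members 6 lay above 0 and Cdkn1a below, while 53.9% of all genes lay above 0. The members' median difference was 0.31, a fold of 1.24, and that of all genes was 0.03. All 7 lay within the 5th to 95th percentile of all genes, which ran from -0.68 to 0.50. With IL-22 in place of PBS, Zbtb16 was called lower and no member was called higher, where 0.189% of 13233 genes were called lower, 0.597% higher and 0.786% in either direction. In this pair 4 members lay above 0, as did 58.6% of genes. The members' median with IL-22 was 0.08, beside 0.04 for all genes. Zbtb16, Pdk4 and Angptl4 lay outside the 5th to 95th percentile of all genes, which ran from -0.26 to 0.40, and the other 4 lay within it. The shares of all genes called also stand beside the gene lists below, and a short list with none called is near them.

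**Figure D1:**
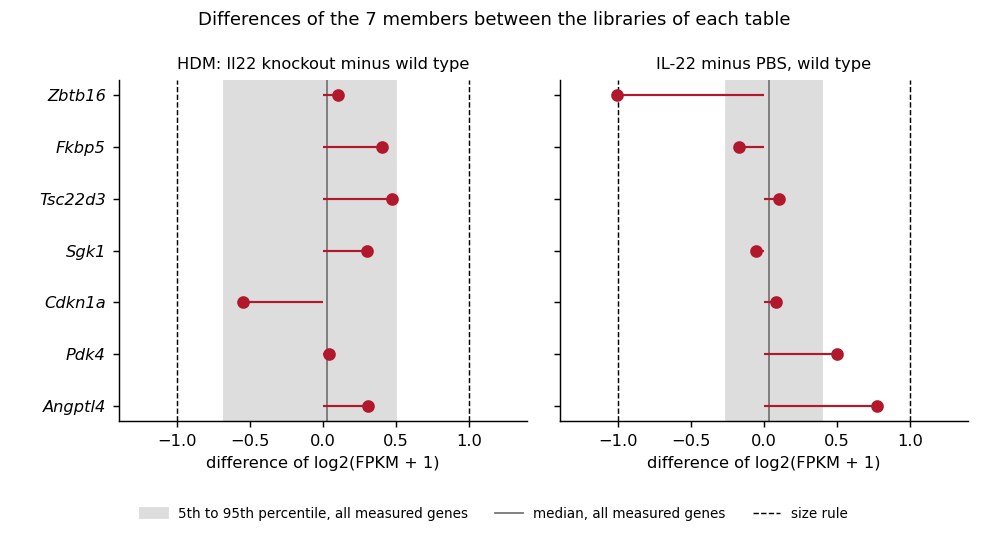
Differences of log2(FPKM + 1) for the 7 members, Il22 knockout minus wild type after HDM on the left and IL-22 minus PBS on the right, 1 library per group. The grey band is the 5th to 95th percentile of all measured genes, the solid line their median and the dashed lines the size rule of 1; only Zbtb16 in the right panel reaches a dashed line.

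Zbtb16 encodes PLZF, a zinc finger transcription repressor that glucocorticoids strongly induce in many cells and that also marks innate-like lymphocytes such as NKT cells. Its FPKM was 24.6 in wild type and 26.5 in the knockout after HDM, 8.94 with PBS and 3.94 with IL-22. Both HDM libraries were thus high, PBS was lower and IL-22 lowest, the widest spread of any member at 6.72-fold. The knockout and wild-type values differed by 0.10, a difference in this direction that 38.1% of genes reached. The IL-22 library was 2.27-fold below the PBS library, a difference of -1.01 that just passed the size rule. It fell short at -0.97 when the libraries were scaled to a common total, and lay at -1.04 with scaling by the median ratio. From an estimated 877 reads with PBS and 559 with IL-22, the ratio was 0.441 with an exact 95% counting interval of 0.396 to 0.491. Only 0.189% of genes were as far below 0 in that pair.

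Markers of innate-like and innate lymphocytes, some of which express PLZF, are set beside Zbtb16. Of 11 measured in the IL-22 pair, Zbtb16 was the only one called, where 0.786% of all genes were called. With calls this rare, none among so few other markers says little about these cells. Without Zbtb16, the summed FPKM of the 12 listed genes was 50.6 with PBS and 54.6 with IL-22, and none was at 0. Thy1 was the most abundant of them, at 17.5 and 17.2 FPKM. The part of these cells in the Zbtb16 values was not tested. Rora, a nuclear receptor of innate lymphocytes, had a difference of 0.73, from 2.49 to 4.79 FPKM, and Klrb1c, the NK1.1 receptor, one of 0.29. After HDM the same sum was 64.2 in wild type and 61.3 in the knockout. There Klrg1 (3.99 against 1.76 FPKM), Cxcr6 (4.47 against 2.14) and Il1rl1, the IL-33 receptor (3.30 against 1.54), were below wild type in the knockout without passing the size rule. Of the 13 markers measured after HDM, Zbtb16 included, 8 lay above 0 and 5 below, with a median of 0.10. Of 14 measured genes of the BTB zinc finger family and of PLZF partners, none was called after HDM and only Zbtb16 with IL-22. Cul3, the ubiquitin ligase scaffold that PLZF recruits, had differences of -0.14 and 0.08.

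Fkbp5 encodes FKBP51, a co-chaperone that binds Hsp90 in the receptor complex and lowers its affinity for hormone, so its induction is a negative feedback. Its FPKM was 21.2 in wild type and 28.4 in the knockout after HDM, 6.80 with PBS and 5.91 with IL-22. The HDM libraries stood apart from the other 2, with the knockout highest. The knockout value was 1.34-fold that of wild type, a difference of 0.40 that 8.71% of genes matched or passed. Counting error put the ratio between 1.26 and 1.42. In the IL-22 pair the difference was -0.17, with a ratio of 0.869 and a counting interval of 0.767 to 0.985. Among 14 measured FK506-binding proteins none was called in either pair. In the HDM pair Fkbp2, of the endoplasmic reticulum, lay as far from 0 as Fkbp5 but below it, at -0.40, and Fkbp14 lay at 0.29. Fkbp4, the FKBP52 co-chaperone that opposes FKBP51, was level over the 4 libraries, from 102 to 108 FPKM.

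Tsc22d3 encodes GILZ, the glucocorticoid-induced leucine zipper, which binds NF-kappaB and AP-1 and carries part of the anti-inflammatory action of the hormone. It was the most abundant member, with 160 FPKM for wild type and 222 for the knockout after HDM, 137 with PBS and 147 with IL-22. The knockout library was highest and the other 3 lay close together. Its difference of 0.47, a ratio of 1.39, was the highest of the members in the HDM pair (that of Cdkn1a, below 0, was larger in size), and 5.90% of genes matched or passed it. In the IL-22 pair the difference was 0.10. Its relative Tsc22d1, a regulator of growth, had a difference of 0.37 in the HDM pair (137 against 177 FPKM), while Tsc22d2 and Tsc22d4 lay at -0.04 and -0.05.

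Sgk1 encodes a serine/threonine kinase that keeps epithelial sodium channels at the cell surface by acting on the ubiquitin ligase Nedd4l. Its FPKM was 31.7 in wild type and 39.4 in the knockout after HDM, 33.6 with PBS and 32.3 with IL-22. It varied least of the members, 1.24-fold from lowest to highest, and it alone had an HDM library below a PBS or IL-22 library. The differences were 0.31 in the HDM pair and -0.06 in the other, where the sign turned to 0.05 with scaling to a common total. Of 19 measured genes for SGK kinases, channels and pumps none was called in either pair. The sodium channel subunits Scnn1a, Scnn1b and Scnn1g had differences of 0.24, 0.38 and 0.23 after HDM, and -0.42, -0.05 and -0.16 with IL-22. Ndrg1, a substrate of SGK1 that also responds to low oxygen, was at 15.7 FPKM with PBS and 29.7 with IL-22. Ndrg2 was at 22.8 against 40.4 after HDM.

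Cdkn1a encodes p21, the inhibitor of cyclin-dependent kinases that p53 and glucocorticoids both induce. It was the only member below 0 in the HDM pair, with 76.7 FPKM for wild type, 52.2 for the knockout, 37.9 with PBS and 40.1 with IL-22. Wild type after HDM was highest, the knockout lay between, and PBS and IL-22 were close. The difference was -0.55, with wild type 1.47-fold above the knockout, and 7.17% of genes lay as far below 0. In the IL-22 pair the difference was 0.08. Among 8 measured CDK inhibitors 1 was called in the HDM pair, Cdkn3 (3.72 FPKM for wild type, 0.898 for the knockout), a phosphatase of dividing cells. Cdkn1c and Cdkn2b went the other way at 0.81 and 0.58, short of the size rule.

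Cell cycle genes, by contrast, differed widely in the same pair. Of 22 measured, 12 were lower in the knockout, beside 2.42% of all genes, and none was higher. Their median was -1.02. Birc5 and Top2a, genes of dividing cells, both lay at -1.70. With a minimum mean FPKM of 5 only 7 of these genes were measured and their median, at -0.67, missed the size rule. Of 24 measured p53 targets 1 was lower, Ckap2, a gene of mitotic cells, and the median was 0.16. Sesn1 and Trp53inp1, stress genes under p53, had differences of 0.76 and 0.71, and Mdm2, the p53 ligase, had one of -0.18. In the IL-22 pair no cell cycle gene or p53 target was called.

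Pdk4 encodes a kinase that shuts down pyruvate dehydrogenase and so spares glucose during fasting. It was the least abundant member, with 8.12 FPKM for wild type and 8.38 for the knockout after HDM, 1.91 with PBS and 3.12 with IL-22. The HDM libraries lay together and well above the others. They differed by 0.04, which 47.9% of genes passed, with a ratio of 1.03 and a counting interval of 0.930 to 1.15. With IL-22 the difference was 0.50, from an estimated 126 and 296 reads, a ratio of 1.63 with a counting interval of 1.32 to 2.02. In that pair 2.88% of genes lay as far above 0. No gene of the pyruvate dehydrogenase complex and its kinases was called in either pair, out of 11 measured. Pdk2, the most abundant kinase of the family with PBS, was lower in both HDM libraries than in the other 2, with 12.9 and 17.1 FPKM after HDM in wild type and knockout, 37.1 with PBS and 33.4 with IL-22.

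Angptl4 encodes a secreted inhibitor of lipoprotein lipase that fasting, PPAR signals, low oxygen and glucocorticoids induce. Its FPKM was 47.1 in wild type and 58.5 in the knockout after HDM, 12.03 with PBS and 21.3 with IL-22. The HDM libraries were again highest and PBS lowest. The knockout was 1.24-fold above wild type (counting interval 1.19 to 1.30), a difference of 0.31. With IL-22 the ratio to PBS was 1.77 (counting interval 1.63 to 1.93), a difference of 0.78 that 1.01% of genes matched or passed. Of 11 measured genes of the lipase system and the angiopoietin-like family none was called in either pair. The lipase Lpl itself had differences of 0.24 and 0.05, and Gpihbp1, which anchors it to capillaries, 0.70 and -0.22. Angptl7 and Angptl2, family members in stromal cells, had differences of 0.71 and 0.56 after HDM, and of -0.68 and -0.21 with IL-22.

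**Figure D2:**
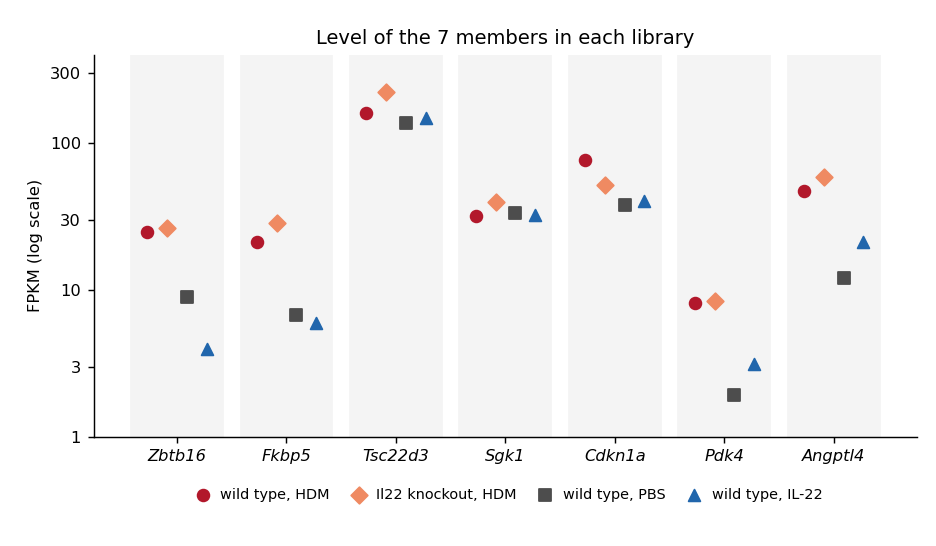
FPKM of the 7 members on a log axis in the 4 libraries, 1 point per library. Zbtb16, Fkbp5, Pdk4 and Angptl4 have both HDM points well above the PBS and IL-22 points, and the points of Sgk1 lie within 1.24-fold.

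Fat and muscle are tissues in which Angptl4 and Pdk4 are strongly expressed, and their markers mostly lay above 0, as these genes did, in the IL-22 pair. Of 10 measured fat cell markers 5 were higher with IL-22 and none lower, with a median of 0.91, and the summed FPKM of the 12 listed was 316 with PBS and 578 with IL-22. Adipoq, the adiponectin gene, was at 6.65 and 20.01 FPKM, Plin1 at 2.32 and 6.90, and Ucp1 was listed at 0 in both. Heart muscle markers lay above 0 in 11 of 11, 1 of them called, with summed FPKM of 773 and 1132, and skeletal muscle markers in 4 of 5, 1 of them called, with sums of 23.7 and 40.4. Smooth muscle markers lay above 0 in 9 of 9, 3 of them called, with a median of 0.82 and sums of 598 and 1134. Monocyte and interstitial macrophage markers lay above 0 in 8 of 10, 2 of them called, with a median of 0.58 and sums of 364 and 552. The part of these cells in the values of Pdk4 and Angptl4 was not tested. In the HDM pair, where Angptl4 and Pdk4 had differences of 0.31 and 0.04, these markers lay mostly below 0. Of 9 heart muscle markers 8 were lower in the knockout (median -1.42), of 8 fat cell markers 3 (median -0.54), of 9 smooth muscle markers 1 (median -0.33) and of 5 skeletal muscle markers 0 (median -0.34). The sums in wild type and knockout were 208 and 134 for fat, 396 and 151 for heart muscle, 726 and 513 for smooth muscle, and 17.6 and 12.3 for skeletal muscle. Lep was listed at 0 in both HDM libraries and Ucp1 in the knockout. Of 22 genes of PPAR-driven fat oxidation measured after HDM and 21 with IL-22 none was called, with medians of -0.05 and 0.04. Cpt1a, the gate of fatty acid entry into mitochondria, had differences of 0.26 and 0.21, and Plin2, which coats lipid droplets, -0.62 and -0.07.

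Set side by side, the 4 libraries showed one arrangement for 4 of the members. In Zbtb16, Fkbp5, Pdk4 and Angptl4 both HDM libraries exceeded both the PBS and the IL-22 library by at least 1 in log2(FPKM + 1). The same held for 55 of the 13317 genes whose mean FPKM over all libraries reached 1 (0.413%). Measured as the lower HDM library over the higher of the other 2, the FPKM ratio was 3.12 for Fkbp5, 2.75 for Zbtb16, 2.60 for Pdk4 and 2.21 for Angptl4. These 4 members ranked 30, 31, 42 and 44 among the 13317 genes by this gap. At any size, both HDM libraries were above both others for 6 of 7 members and for 28.5% of genes, with Tsc22d3 (1.08-fold) and Cdkn1a (1.30-fold) added and Sgk1 left out. Both HDM libraries were below both others for 0 members and 36% of genes. The HDM libraries are in a table of their own, which the authors may have normalized apart from the other, and they differ in allergen, dosing and hours to harvest, so treatment, time and table cannot be told apart. From an HDM library to one of the others, the median difference (HDM minus other) lay between -0.07 and -0.02 over all genes and between -0.09 and 0.04 over 16 reference genes. Single reference genes ranged from -0.97 to 1.24. The members were chosen with earlier results of these data known, so their count is not independent evidence of a shared pattern.

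**Figure D3:**
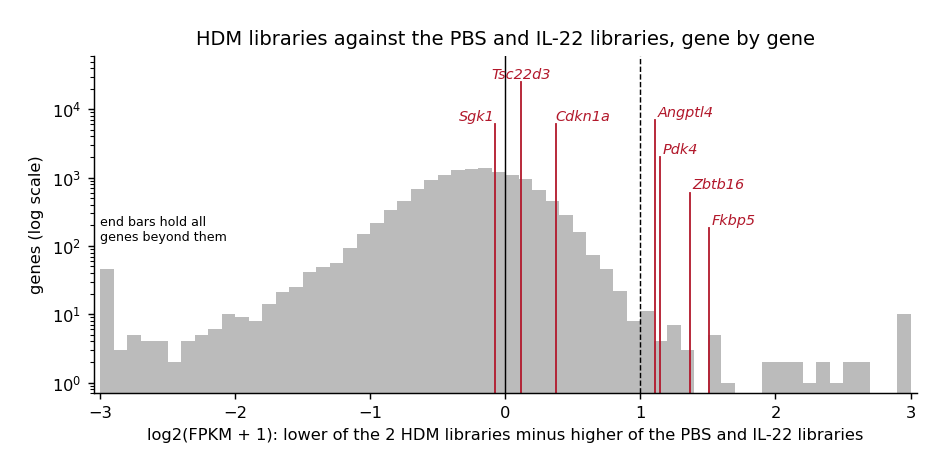
Histogram over 13317 genes of the lower HDM library minus the higher of the PBS and IL-22 libraries, in log2(FPKM + 1), with a log count axis and a red line per member. Fkbp5, Zbtb16, Pdk4 and Angptl4 lie to the right of the dashed line at 1, with 0.413% of genes, and Sgk1 lies just below 0.

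No gene of the hormone's own machinery was called, where 2.97% of all genes were called after HDM and 0.786% with IL-22. With calls this rare, none among so few genes says little about them. Nr3c1, the receptor, had 24.7 FPKM for wild type and 29.1 for the knockout after HDM, 23.3 with PBS and 24.3 with IL-22, differences of 0.23 and 0.06. Of 19 measured genes for the receptors, their chaperones and cofactors none was called in either pair, but 14 of 19 lay below 0 in the HDM pair (median -0.11). The chaperone genes Dnajb1, Stip1 and Hspa8 had differences there of -0.87, -0.46 and -0.40. Hsp90aa1, the inducible Hsp90, was at 310 and 270 FPKM after HDM, and at 132 and 159 with PBS and IL-22. Hsd11b1, the enzyme that reactivates the hormone inside cells, was at 96.3 in wild type and 159 in the knockout after HDM (0.71), and at 83.6 with PBS and 104 with IL-22. Hsd11b2, which inactivates it, had a difference of -0.82 after HDM at low levels, 2.06 against 0.732 FPKM. Neither enzyme passed the size rule.

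Other genes that glucocorticoids induce differed in both directions after HDM. Of 38 measured after HDM 1 was higher and 2 lower in the knockout, beside 0.549% and 2.42% of all genes. The median was 0.11, and 23 lay above 0. Fam107a, an actin-associated gene, was at 9.28 against 25.9 FPKM. Lcn2, a siderophore-binding protein that inflammation also induces, was at 1663 against 284, and Nfil3, a repressor in the clock and in type 2 immunity, at 5.72 against 1.98. Pik3ip1, a brake on PI3 kinase, had a difference of 0.99, just short of the size rule. With IL-22 none of 37 was called and the median was -0.04, with Mfsd2a, a lipid transporter, at 0.49, and Dusp1, a MAP kinase phosphatase, at -0.43. Across the 4 libraries, both HDM libraries were above both others in 14 of 37, beside 28.5% of all genes. They were below both others in 9 of 37, beside 36% of all genes. By at least 1 they were above in 2 of 37, beside 0.413% of all genes: Map3k6 and the metallothionein Mt2. Map3k6, a stress kinase, was at 12.6 and 18.05 FPKM after HDM, and at 4.70 and 4.07 with PBS and IL-22. For Mt2 these values were 72.5, 37.97, 12.8 and 14.9. Per1, which is both a clock gene and a receptor target, had its HDM values below the others, at 16.1 and 24.2 against 28.8 and 31.1. Klf9, a receptor target in most tissues, was at 51.7 and 80.8 after HDM and at 32.9 and 37.1 otherwise. Map3k6, Mt2, Per1 and Klf9 were named after their values were seen.

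**Figure D4:**
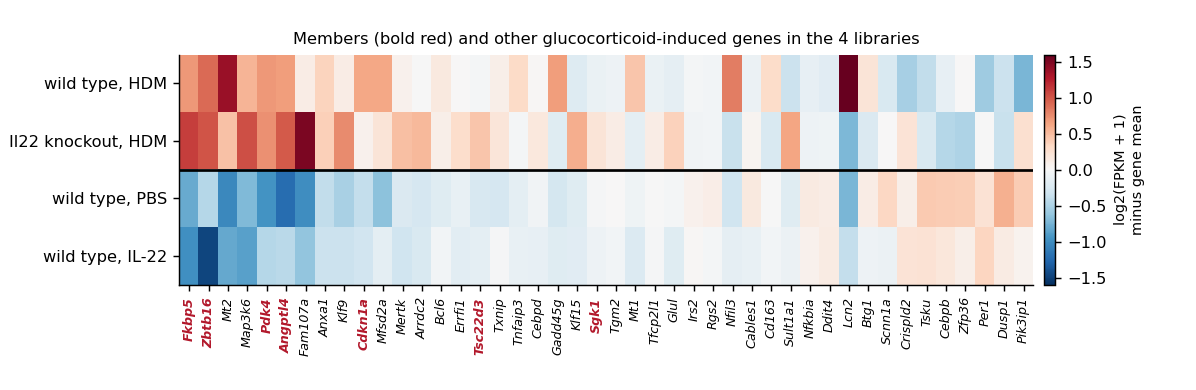
Colour map of log2(FPKM + 1) minus the gene's mean over the 4 libraries, for the 7 members (bold red names) and 37 other glucocorticoid-induced genes, ordered by how far the HDM libraries exceed the others. Zbtb16, Fkbp5, Pdk4 and Angptl4 stand at the left with Mt2 and Map3k6, and Per1 stands near the right end.

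Inflammatory genes that glucocorticoids are known to repress were lower in the HDM knockout, in 10 of 18 measured with none higher (median -1.24). Of all genes 2.42% were lower. The neutrophil chemokines Cxcl1 and Cxcl5 had differences of -2.58 and -2.49, the interferon-induced Cxcl10 one of -2.43 and the monocyte chemokine Ccl7 one of -2.35. With a minimum mean FPKM of 5 the median was -0.63 over 9 genes. With IL-22 none of 17 was called (median -0.02). Markers of macrophages, which make many of these genes, were also lower in the knockout: 4 of 10 monocyte and interstitial macrophage markers, with summed FPKM of 587 in wild type and 264 in the knockout, and 3 of 10 alveolar macrophage markers, with sums of 2910 and 709. Most of the latter gap was Chi3l3, at 2438 and 367 FPKM, and the other 9 summed to 472 and 342. None of these markers was at 0, and their part was not tested. Markers of endothelium, where Fkbp5 and Tsc22d3 are also expressed, had a median of 0.45 in this pair and sums of 1003 and 1258, with none called of 11 and none at 0. Their part in the members' differences was not tested either.

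**Figure D5:**
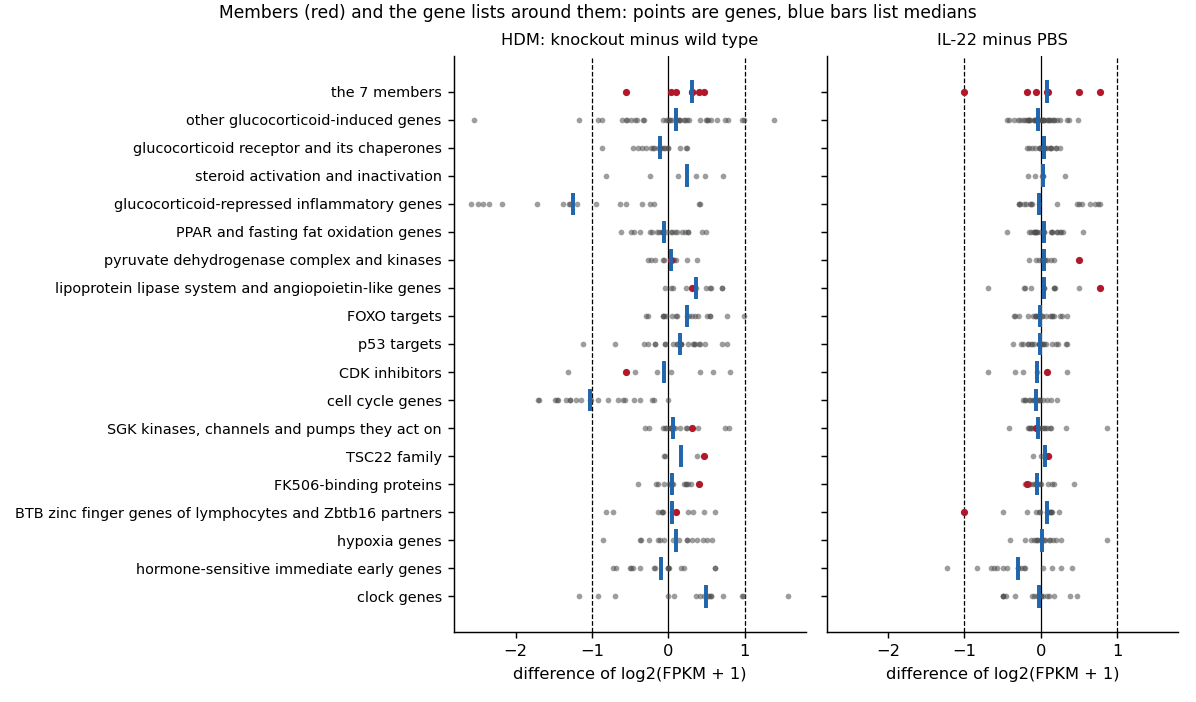
Differences of log2(FPKM + 1) for each measured gene of the members and of 18 related lists, after HDM on the left and with IL-22 on the right, with list medians as blue bars and members in red. In the left panel the medians of glucocorticoid-repressed inflammatory genes (-1.24) and cell cycle genes (-1.02) pass the dashed line of the size rule, though neither does with a minimum mean FPKM of 5, and the members' median is 0.31.

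Genes nearest to each member were found over its 2 differences, among 7901 protein-coding genes whose mean FPKM reached 5 in each pair. Zbtb16 had no gene within 0.1 of its pair of differences, and the nearest were Ccl21a (0.19 and -0.91), Spink4 (-0.14 and -0.89) and Matn4 (-0.03 and -0.74). Angptl4 had 1 within 0.1, Kctd12 (0.26 and 0.84), followed by Scd1 and Sema3c. Pdk4 had 15, with Hspa4l, Clock and Tbl1x nearest. The other members had many, 65 for Cdkn1a, 149 for Tsc22d3, 160 for Fkbp5 and 465 for Sgk1. Their nearest genes were Tnfsf13b, Olfm1 and Relb for Cdkn1a, Abhd16a, Arhgap27 and Nelf for Tsc22d3, Sox18, Rnf167 and Cxcl14 for Fkbp5, and Nr2f6, Atg9a and Mtss1 for Sgk1. Since 2 differences fix this likeness, it describes these libraries only.

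Genes next to the members on the chromosome were rarely called, as were genes in general. For each member these were the 10 measured genes flanking it, 5 on a side. In the IL-22 pair none of 67 distinct neighbours was called, beside 0.786% of all genes. The neighbours of Zbtb16 had a median of 0.09 there. After HDM, 1 neighbour each of Sgk1, Pdk4 and Angptl4 was called higher and none lower. That was 3 of 67 distinct neighbours (4.48%), beside 2.97% of all genes called in either direction, 0.549% higher and 2.42% lower. The neighbours of Fkbp5 had a median of -0.01 and those of Tsc22d3 of -0.03, beside differences of 0.40 and 0.47 for these members. Fkbp5 and Cdkn1a share some of their neighbours.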

How the data were processed

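Total RNA from 4 lung libraries was sequenced, and the authors deposited FPKM per gene in 2 tables, 1 for the HDM libraries and 1 for the PBS and IL-22 libraries. Neither header names the unit, which was read from the values and from the tools in the submitters' processing notes: CASAVA 1.8.2, TopHat2, Cufflinks 2.2.1 and the build mm10. Tool settings, and whether libraries were scaled to each other, are not given here. Groups came from sample titles. The 23746 rows of each table were joined on symbol and accession, 25 symbols turned into dates were restored from the accession, and rows of a symbol were added. Transcript lengths less 200 bases (GENCODE M21) gave the FPKM value of 1 read. Of low values 65.0 to 66.9% came out within 0.1 of a whole read. Counting intervals are exact binomial and cover counting error only. Members and the 38 gene lists were chosen with earlier results of these data known. Genes named are the members, Il22, Nr3c1, up to 4 members of a list with the largest differences, and the 3 genes nearest each member. Further list genes (among them Cpt1a, Cul3, Fkbp4, Hsp90aa1, Klf9, Lpl, Map3k6, Mdm2, Mt2, Pdk2, Per1 and Scnn1g) were named after their values were seen. Alternatives were a pseudocount of 0.1, median ratio or common total scaling, no filter or a minimum mean FPKM of 5, and a size rule of 1.5-fold. The steps were tested on simulated counts, which hold counting error but no spread between mice. The work used matplotlib 3.10.9, scipy 1.17.1, pandas 2.3.3, numpy 2.4.6 and Python 3.11.15.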

Additional observations from a re-analysis of the deposited data

How the results depend on the processing

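No paired analysis was possible because each group has 1 library. In the HDM pair no member was called under any of the alternatives, and the sign of each of the 7 differences held in all of them. With IL-22 the count of members called lower was 0 with scaling to a common total (Zbtb16 at -0.97), and the count called higher was 1 (Angptl4) with the size rule of 1.5-fold. Sgk1 turned from -0.06 to 0.05 with a common total. With a mean FPKM of at least 5, Pdk4 was no longer measured in the IL-22 pair, and the median of the other 6 members was 0.01. Counts over all genes moved more. In the HDM pair 73 were higher and 322 lower of 13285 genes in the main setting. There 131 were higher and 488 lower with a pseudocount of 0.1, and 429 higher and 852 lower with the 1.5-fold rule. With a mean FPKM of at least 5, 193 were lower, but of only 9056 measured genes. In the IL-22 pair 132 were higher with a pseudocount of 0.1, and 259 higher and 61 lower with the 1.5-fold rule. Lists whose median passed the size rule in the IL-22 pair numbered 0, and 1 with a pseudocount of 0.1, a common total or a mean FPKM of at least 5, and 2 with the 1.5-fold rule. In the HDM pair they numbered 3, and 4 with a pseudocount of 0.1 or the 1.5-fold rule. With a mean FPKM of at least 5 there were 3, but not the same ones. Repressed inflammatory genes and cell cycle genes dropped out. Heart muscle markers stayed at -1.42, and monocyte and interstitial macrophage markers entered at -1.12. Neutrophil markers entered at 1.11, from 3 genes. For the levels across tables, alternatives were chosen after seeing the data. All 6 left the count of members with both HDM libraries above by the size rule at 4 of 7, while that of all genes was 91 with a pseudocount of 0.1 and 228 with the 1.5-fold rule.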

Other observations

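Immediate early genes answer within minutes to handling and to many hormones. Of 16 measured, 12 had both HDM libraries below both the PBS and the IL-22 library, and 36% of all genes did. The other 4 had neither order. By at least 1 in log2(FPKM + 1) this held for 1 of 16, as for 0.398% of all genes: Nr4a1, an orphan nuclear receptor, was at 7.43 and 7.38 FPKM after HDM in wild type and knockout, 85.7 with PBS and 54.1 with IL-22. Within the IL-22 pair Egr1, a growth-response transcription factor, was the only one called, at 26.1 FPKM with PBS and 10.6 with IL-22, and the median of the 16 was -0.30. Dbp, an output gene of the clock, was at 15.7 and 48.6 FPKM after HDM and at 132 and 94.1 with PBS and IL-22. Of 16 measured clock genes 13 lay above 0 in the HDM pair, as did 53.9% of all genes, and the median was 0.49. Dbp was called higher there (1.57) and Nfil3 lower (-1.17), where 2.97% of all genes were called. With IL-22 none of 16 was called (median -0.02). The part of the clock in the members' differences was not tested. The labels give no hour of day for the harvest.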
